A study of Mus musculus with 16 samples.

Results

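The 9 genes described here encode complement components: the 3 chains of C1q (C1qa, C1qb, C1qc), the C1 proteases C1ra and C1s1, and C2, C4b, C3 and complement factor B (Cfb). They were chosen by name as the rows of the count and FPKM tables that carry these symbols, and they are 9 of the 54532 genes listed. Total mRNA of the entire aorta was measured by RNA sequencing in 16 male C57BL/6J mice, 1 library a mouse and 4 mice a group. All groups except the Sham mice had 5/6 nephrectomy (5/6 Nx, removal of most kidney tissue in a pair of operations 1 week apart, begun at 12 weeks of age), a model of chronic kidney disease, and began one of 3 diets when 2 weeks had passed for recovery. The diet of the group 5/6 Nx-HPi-Lp held 2% phosphorus and 2.5% protein, that of 5/6 Nx-HPi-Hp 2% phosphorus with 18% protein, and that of 5/6 Nx-LPi-Lp 0.3% phosphorus with 2.5% protein. These nephrectomised groups are called HPi-Lp, HPi-Hp and LPi-Lp here, after their diets. The Sham mice kept their kidneys and also received the diet with 2% phosphorus and 2.5% protein, so that no group was free of a changed diet. The diets lasted 4 weeks by the study's methods and 30 days by the sample labels.

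Complement is a chain of plasma proteins that marks surfaces for removal and calls in leukocytes. In the classical pathway C1q binds antibody, pentraxins or dying cells, its bound proteases C1r and C1s then cut C4 and C2, and the fragments of these form an enzyme that cuts C3. In the alternative pathway factor B, cut by factor D, forms a second such enzyme with C3b. The liver makes most of the circulating proteins, except C1q, which comes mainly from macrophages, while fibroblasts and other tissue cells also make C1r, C1s, C3 and C4.

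Library totals were 20795568 to 24204348 counts in the Sham mice and 13659525 to 57276915 in the other groups. The HPi-Lp mice 1 to 4 had 15665005, 57276915, 46499243 and 15013203 counts, so raw counts cannot be set directly against each other between mice. Mitochondrially encoded genes took 4.18% to 6.34% of the counts in the Sham mice and 9.50% to 29.0% in the rest. The 6 smooth muscle markers, which define the aortic wall, were present in every group, at a summed level of 7554 to 9615 FPKM (counts scaled by the authors for gene length and library size) in the Sham mice and 746.5 to 1742 FPKM in the HPi-Lp mice, where all 6 were lower. The markers of Schwann cells (4 of 4), sympathetic neurons (3 of 3 tested), pancreas acinar cells (2 of 2 tested) and white adipocytes (5 of 6) were higher in the HPi-Lp mice than in the Sham mice. For Schwann cells, sympathetic neurons and white adipocytes this was also so for 4 of 4, 3 of 3 and 6 of 6 in the HPi-Hp mice. In the LPi-Lp mice it was so for 3 of 4, 1 of 2 and 6 of 6. The acinar markers were too low to test in comparisons without the HPi-Lp mice. The neuron markers summed to 11.4 to 757 FPKM among the HPi-Lp mice. The part of the tissue around the aorta in the results below was not tested. In whole aorta, a change in the number of cells of a type and a change in RNA per cell cannot be told apart. The spread behind every p is that between mice.

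A gene was called when its adjusted p (quasi-likelihood test of edgeR, Benjamini-Hochberg adjustment over all genes tested) was at most 0.05 and its absolute log2 fold change at least 1, a fold of 2. Against the Sham mice, which differed from them by the kidney surgery, the HPi-Lp mice had 8 of the 9 components called higher, where 15% of all 16513 genes tested were called higher. The median log2 fold change of the 9 components was 2.19, and that of all genes -0.00. The same 8 genes had no overlap of the groups, which held for 20.5% of all genes in that direction, and the exception was C1ra. All 9 log2 fold changes were above 0.

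The bases before the start of C1qb, C1qc and C3 are shown because these are the macrophage-made and the most abundant components for which a promoter sequence was at hand. They come from RefSeq (GRCm38.p6, the assembly also called mm10), in which 5 of the 9 components were matched (C1qb, C1qc, C1ra, C1s1 and C3). They run 5′ to 3′ on the gene's strand and end at the base before the earlier of the RefSeq and GENCODE starts, which leaves 99 bases for C1qc, and capitals mark matches on either strand to GAGGAA, the core bound by the macrophage factor PU.1, or to TTNNGNAA, a loose form of the C/EBP site.
C1qb, chr4:136886201-136886450, minus strand: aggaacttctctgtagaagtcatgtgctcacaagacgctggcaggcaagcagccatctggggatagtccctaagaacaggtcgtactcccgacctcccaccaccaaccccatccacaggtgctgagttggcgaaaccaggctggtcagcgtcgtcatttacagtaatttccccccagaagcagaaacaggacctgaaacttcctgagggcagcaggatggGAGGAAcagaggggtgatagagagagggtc
C1qc, chr4:136893066-136893164, minus strand: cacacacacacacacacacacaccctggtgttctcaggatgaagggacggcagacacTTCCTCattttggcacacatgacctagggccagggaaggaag
C3, chr17:57228137-57228386, minus strand: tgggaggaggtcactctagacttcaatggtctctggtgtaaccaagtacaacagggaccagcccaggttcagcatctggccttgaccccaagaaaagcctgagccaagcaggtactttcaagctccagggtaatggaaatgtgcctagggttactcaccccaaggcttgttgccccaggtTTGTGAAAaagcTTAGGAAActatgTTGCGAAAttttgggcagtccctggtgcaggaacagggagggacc

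In the 250 bases before the RefSeq start, GAGGAA began 30 bases upstream in C1qb and, on the other strand, 193 bases upstream in C1qc. The share of all 32841 promoter entries with this motif was 23.3%. C3 held 3 matches to TTNNGNAA, beginning 70, 58 and 45 bases upstream, a number or more that 2.62% of the promoters held, while 36.9% held at least 1. Each of C1qc, C1ra and C1s1 also held at least 1 match to it. None of the 5 members with a promoter entry held TTCNNNGAA (the GAS site of STAT factors, in 7.02% of promoters), the interferon-stimulated response element (2.98%) or the NF-kB site (1.21%), the latter 2 searched in a simple form. The shorter motifs match often by their length, and a match is only a description of the letters.

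The 3 C1q chains, which assemble into the recognition molecule of the classical pathway, were 3.76 to 4.72 times higher in the HPi-Lp mice than in the Sham mice. Their genes lie side by side on the minus strand of chromosome 4 (mm10): C1qb (ENSMUSG00000036905) from 136880129 to 136886187, C1qc (ENSMUSG00000036896) from 136889804 to 136893065 and C1qa (ENSMUSG00000036887) from 136895917 to 136898803. C1qa, the A chain, stood at 48.8, 51.2, 50.1 and 39.8 FPKM in the Sham mice 1 to 4 and at 95.5, 357, 237 and 199 FPKM in the HPi-Lp mice. Its level was 119, 91.5, 46.9 and 75.8 FPKM in the HPi-Hp mice and 55.1, 71.3, 51.0 and 37.9 FPKM in the LPi-Lp mice. All 4 of the HPi-Lp mice lay above all Sham and LPi-Lp mice, while the lowest of them lay below the highest HPi-Hp mouse.

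C1qb, the B chain, stood at 35.5, 42.2, 40.9 and 28.5 FPKM in the Sham mice and at 90.3, 289, 167 and 163 FPKM in the HPi-Lp mice. C1qc, the C chain, had 20.7, 21.1, 18.2 and 15.1 FPKM in the Sham mice and 38.1, 108, 80.9 and 61.1 FPKM in the HPi-Lp mice. Mouse 2 was the highest and mouse 1 the lowest of the HPi-Lp mice for all 3 chains. The log2 fold changes against the Sham mice were 2.19 ± 0.32 (SE) for C1qa, 2.24 ± 0.30 for C1qb and 1.91 ± 0.28 for C1qc, with adjusted p of 0.0006, 0.0004 and 0.0005 (edgeR). The chains kept close ratios to each other, with a C1qb level of 0.855 ± 0.108 (SD, n = 16) and a C1qc level of 0.374 ± 0.051 times the C1qa level over all libraries. Their pairwise correlations over the 16 libraries (log2 CPM) were 0.976 to 0.983, and 0.927 to 0.960 after the group means were taken off. The libraries share their groups and differ in depth, so that these are descriptions.

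**Figure D1:**
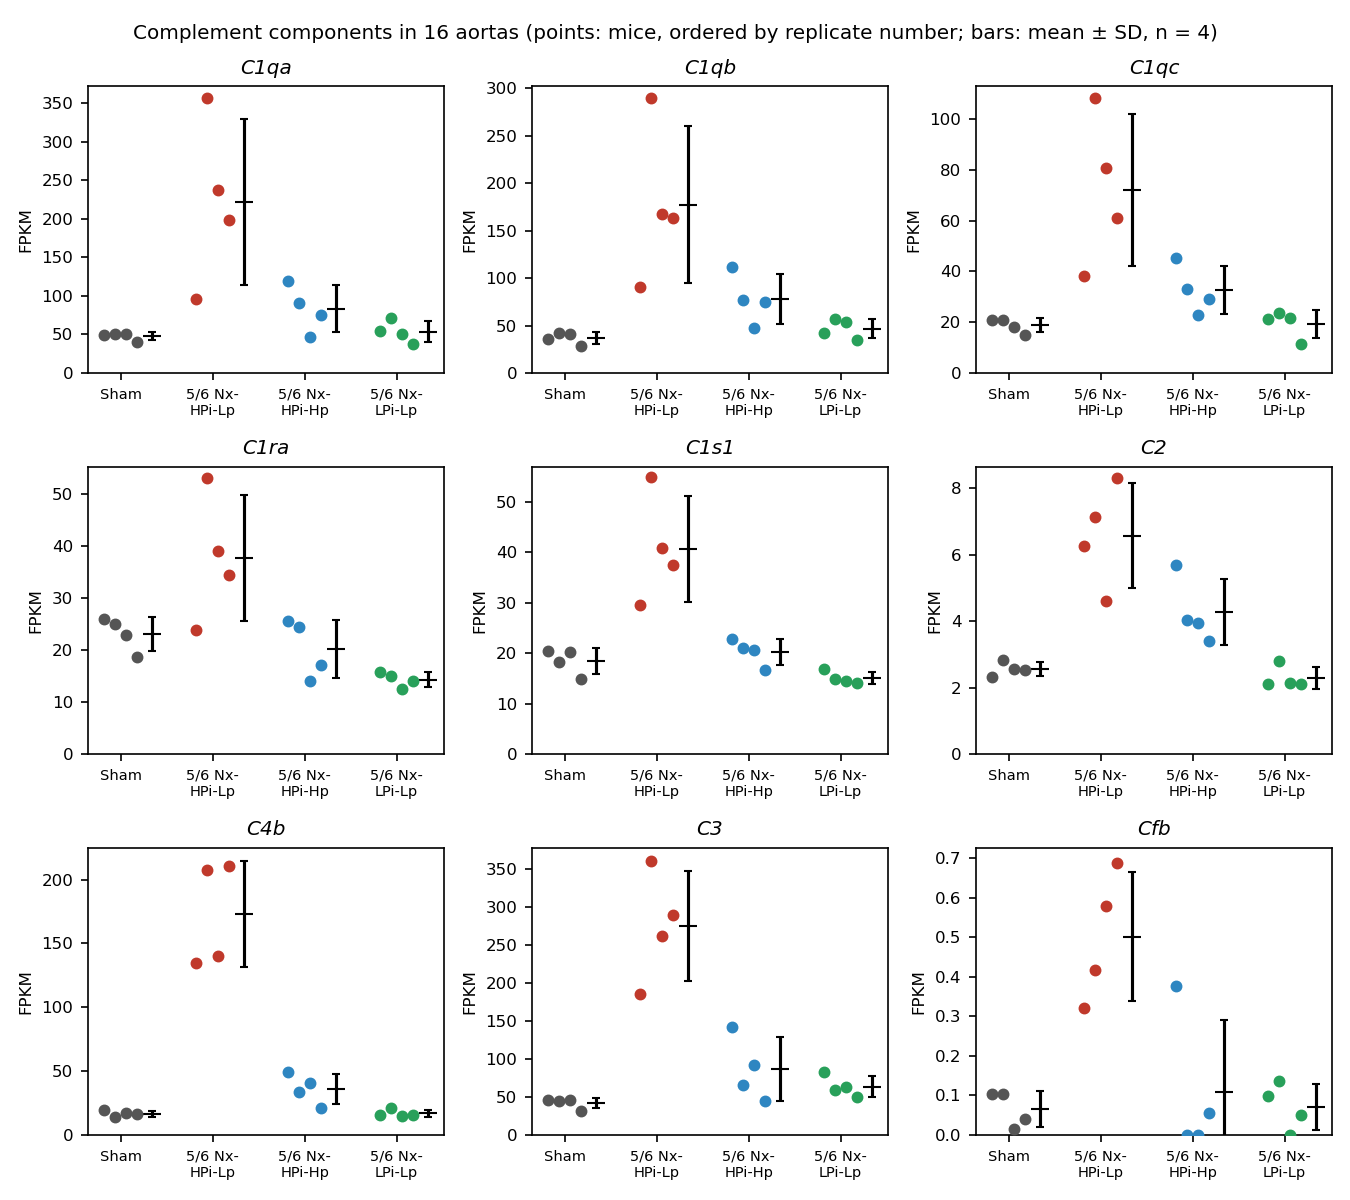
FPKM of the 9 complement components in each aorta (vertical axis, linear from 0; each panel has its own range), with the 4 groups side by side, points for mice and bars for the mean ± SD of 4 mice (lower arms below 0 are not drawn). The HPi-Lp mice lie above all Sham mice for every gene except C1ra, and C4b stands at 19.3 FPKM at most in the Sham mice and at least at 135 FPKM in the HPi-Lp mice.

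The C1 proteases changed less. C1ra (ENSMUSG00000055172, chromosome 6, 124512405 to 124523443, plus strand), which cuts and activates C1s, stood at 25.9, 25.1, 22.9 and 18.6 FPKM in the Sham mice and at 23.9, 53.1, 39.0 and 34.4 FPKM in the HPi-Lp mice. One HPi-Lp mouse thus lay among the Sham mice, and the log2 fold change of 0.67 ± 0.21 (adjusted p = 0.0294, edgeR) was under the fold threshold. C1s1 (ENSMUSG00000038521, chromosome 6, 124530345 to 124542359, minus strand), which cuts C4 and C2, stood at 20.5, 18.1, 20.2 and 14.9 FPKM in the Sham mice and at 29.6, 54.8, 40.9 and 37.4 FPKM in the HPi-Lp mice. These groups did not overlap, and C1s1 was higher by 1.11 ± 0.18 on the log2 scale (adjusted p = 0.0010, edgeR), which fell under the fold threshold, to 0.95, without HPi-Lp mouse 2. The C1s1 level was 0.800 ± 0.065 times the C1ra level in the Sham mice and 1.10 ± 0.09 times in the HPi-Lp mice (SD, n = 4 each), ranges that did not overlap. In mouse both genes have a close copy, C1rb and C1s2, which held at most 24 and 126 counts in any library. Of the exonic bases of C1s1, 18.4% overlap an antisense gene, Gm16567, and the strand setting of the counting was not given in the sources used here.

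C4b, the classical component that is cut by C1s and binds covalently to surfaces, had the largest log2 fold change of the 9 against the Sham mice. It stood at 19.3, 13.72, 17.5 and 16.3 FPKM in the Sham mice and at 135, 207, 140.2 and 211 FPKM in the HPi-Lp mice. The HPi-Hp mice had 49.0, 33.8, 40.9 and 21.0 FPKM and the LPi-Lp mice 15.4, 21.3, 14.8 and 15.8 FPKM. No mouse of another group reached the lowest HPi-Lp mouse. C4b (ENSMUSG00000073418, chromosome 17, 34728380 to 34743882, minus strand) was 10.2 times higher than in the Sham mice, a log2 fold change of 3.34 ± 0.20 (adjusted p = 1.37e-05, edgeR). Its near copy C4a, from which the counting could take or give reads, stood at 0.277 to 0.480 FPKM in the Sham mice and 0.640 to 1.02 FPKM in the HPi-Lp mice, far under C4b.

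C2, the protease part of the classical C3 convertase, stood at 2.32, 2.83, 2.57 and 2.54 FPKM in the Sham mice and at 6.25, 7.14, 4.59 and 8.31 FPKM in the HPi-Lp mice. It was 2.51 times higher, with no overlap and a log2 fold change of 1.33 ± 0.18 (adjusted p = 0.0004, edgeR). The C2 level was 0.157 ± 0.036 times the C4b level in the Sham mice and 0.0383 ± 0.0061 times in the HPi-Lp mice (SD, n = 4 each), without overlap.

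C3, the component on which all pathways meet, was the most abundant of the 9 per length in the HPi-Lp mice, at a mean of 275 ± 72.5 FPKM (SD, n = 4), followed by C1qa at 222 ± 108 FPKM. C3 (ENSMUSG00000024164, chromosome 17, 57203970 to 57228136, minus strand) stood at 45.8, 45.0, 45.8 and 32.2 FPKM in the Sham mice and at 186, 361, 263 and 289.8 FPKM in the HPi-Lp mice. The HPi-Hp mice had 143, 66.1, 92.5 and 44.7 FPKM and the LPi-Lp mice 83.0, 58.9, 63.0 and 50.01 FPKM. The HPi-Lp mice lay above all 12 others, and the log2 fold change against the Sham mice was 2.67 ± 0.21, 6.37 times (adjusted p = 2.92e-05, edgeR). As the sequence above shows, its promoter carries a row of 3 C/EBP-like matches. Whether C/EBP factors act on C3 in these aortas was not tested. Of the C/EBP genes on the lists used here, Cebpb was higher by 0.97 ± 0.27 on the log2 scale against the Sham mice (adjusted p = 0.0173, edgeR), under the fold threshold. It was not called in the other 2 comparisons of the HPi-Lp mice. Its mean was 88.2 FPKM in the Sham, 176 in the HPi-Lp, 163 in the HPi-Hp and 167 in the LPi-Lp mice. Cebpd had a value of 0.66 ± 0.25 against the Sham mice (adjusted p = 0.0575, edgeR) and was called higher against the HPi-Hp mice (1.03 ± 0.22, adjusted p = 0.0163) and the LPi-Lp mice (1.20 ± 0.35, adjusted p = 0.0405).

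Cfb, the serine protease of the alternative C3 convertase, was near the limit of detection. It held 8, 7, 1 and 3 counts in the Sham mice, 14, 66, 74 and 30 in the HPi-Lp mice, 20, 0, 0 and 3 in the HPi-Hp mice and 5, 6, 0 and 3 in the LPi-Lp mice. Its FPKM, which allow for depth, were 0.0152 to 0.104 in the Sham mice and 0.321, 0.418, 0.579 and 0.688 in the HPi-Lp mice 1 to 4, without overlap. The log2 fold change was 2.86 ± 0.60 (adjusted p = 0.0041, edgeR). Counts this low carry large counting error, and a count of 0 allows up to 3. Cfb passed the count filter only in the comparisons with the HPi-Lp mice, the group where it was highest. Its calls and its lack of overlap depend on that group, and it is counted among the components with this limit.

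**Figure D2:**
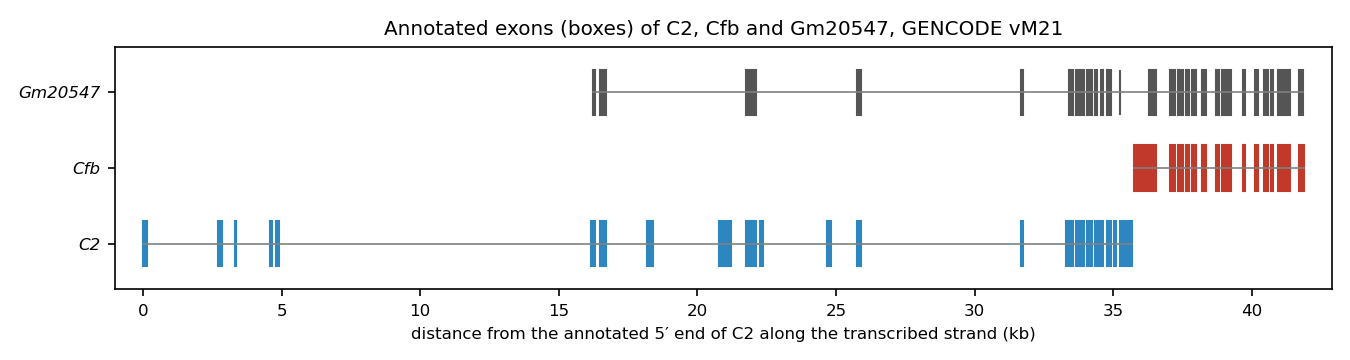
Annotated exons (boxes) of C2, Cfb and the readthrough gene Gm20547 along the transcribed strand, with the horizontal axis in kb from the annotated 5′ end of C2. Most Cfb exons and a part of the C2 exons lie within exons of Gm20547, which is listed at 0 counts in all 16 libraries.

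The Cfb counts also depend on the annotation. C2 (ENSMUSG00000024371, chromosome 17, 34862604 to 34898265) and Cfb (ENSMUSG00000090231, 34856374 to 34862518) are neighbours on the minus strand, and a readthrough gene, Gm20547 (ENSMUSG00000092511), spans both. As the map of their exons shows, it shares 2246 of the 2825 exonic bases of Cfb (79.5%) and 1656 of the 3872 of C2 (42.8%) on the same strand. Gm20547 is listed at 0 in all 16 libraries. How reads on shared exons were treated is not given in the sources used here, so the levels of Cfb and C2 are uncertain, while their comparison between groups rests on the same bases in every library.

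The HPi-Hp mice differed from the HPi-Lp mice by dietary protein, and 5 of the 9 components were called higher in the HPi-Lp mice (C1qa, C1qc, C1s1, C3 and C4b), where 5.01% of all 16198 genes tested were called higher. The median log2 fold change of the 9 was 1.18, and that of all genes 0.01. The groups did not overlap for 3 of the 9 (C1s1, C3 and C4b), against 10.8% of all genes in that direction. C4b was 4.80 times higher, a log2 fold change of 2.26 ± 0.29 (adjusted p = 0.0037, edgeR), and C3 3.18 times higher, 1.67 ± 0.36 (adjusted p = 0.0182). C1qa differed by 1.41 ± 0.39 (adjusted p = 0.0419, edgeR) and C1qc by 1.14 ± 0.32 (adjusted p = 0.0422), with overlapping groups. C1s1, at 1.00 ± 0.20 (adjusted p = 0.0135, edgeR), sat on the fold threshold. The values of C1qb (1.18 ± 0.35, adjusted p = 0.0520, edgeR), C1ra (0.89 ± 0.27, adjusted p = 0.0547) and C2 (0.62 ± 0.23, adjusted p = 0.0974) did not pass the test. Cfb had a log2 fold change of 2.10 ± 1.06 (adjusted p = 0.2065, edgeR), with mouse 1 of the HPi-Hp group at 20 counts, and without that mouse it was 4.38 ± 1.12 (adjusted p = 0.0444), above C4b. The count of 5 changed when single libraries were left out: it was 2 without HPi-Lp mouse 2, 3 or 4 or without HPi-Hp mouse 3 or 4, 1 without HPi-Hp mouse 2, and 6 or 7 without mouse 1 of either group. The share of all genes called in these refits was not counted, so a general loss of calls cannot be told from one of these components. C4b was called in all 8 of these refits, at 2.08 to 2.44. C3 lost its call without HPi-Lp mouse 4 (adjusted p = 0.0545, edgeR) or HPi-Hp mouse 2 (adjusted p = 0.0629).

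Between the HPi-Lp and the LPi-Lp mice, which differed by dietary phosphorus, all 9 components were called higher in the former and none of the 9 had overlapping groups. Of all 16253 genes tested 7.9% were called higher, and 12.7% had no overlap in that direction. The median log2 fold change of the 9 was 1.93, and that of all genes -0.02. C4b was 10.3 times higher (3.36 ± 0.23 on the log2 scale, adjusted p = 0.0003, edgeR), C3 4.32 times (2.11 ± 0.25), C1qa 4.14 times (2.05 ± 0.37), C1qb 3.80 times (1.93 ± 0.33) and C1qc 3.73 times (1.90 ± 0.33). C2 was higher by 1.52 ± 0.20, C1s1 by 1.44 ± 0.19 and C1ra by 1.40 ± 0.23, with adjusted p of 0.0023, 0.0022 and 0.0045 (edgeR). C1ra, not called against the Sham mice, was called here. Cfb was higher by 2.78 ± 0.73 (adjusted p = 0.0282, edgeR), a call lost in 5 of the 8 refits that left out 1 library, with adjusted p up to 0.0849. The 3 comparisons share the HPi-Lp libraries, so their calls are not independent of each other.

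**Figure D3:**
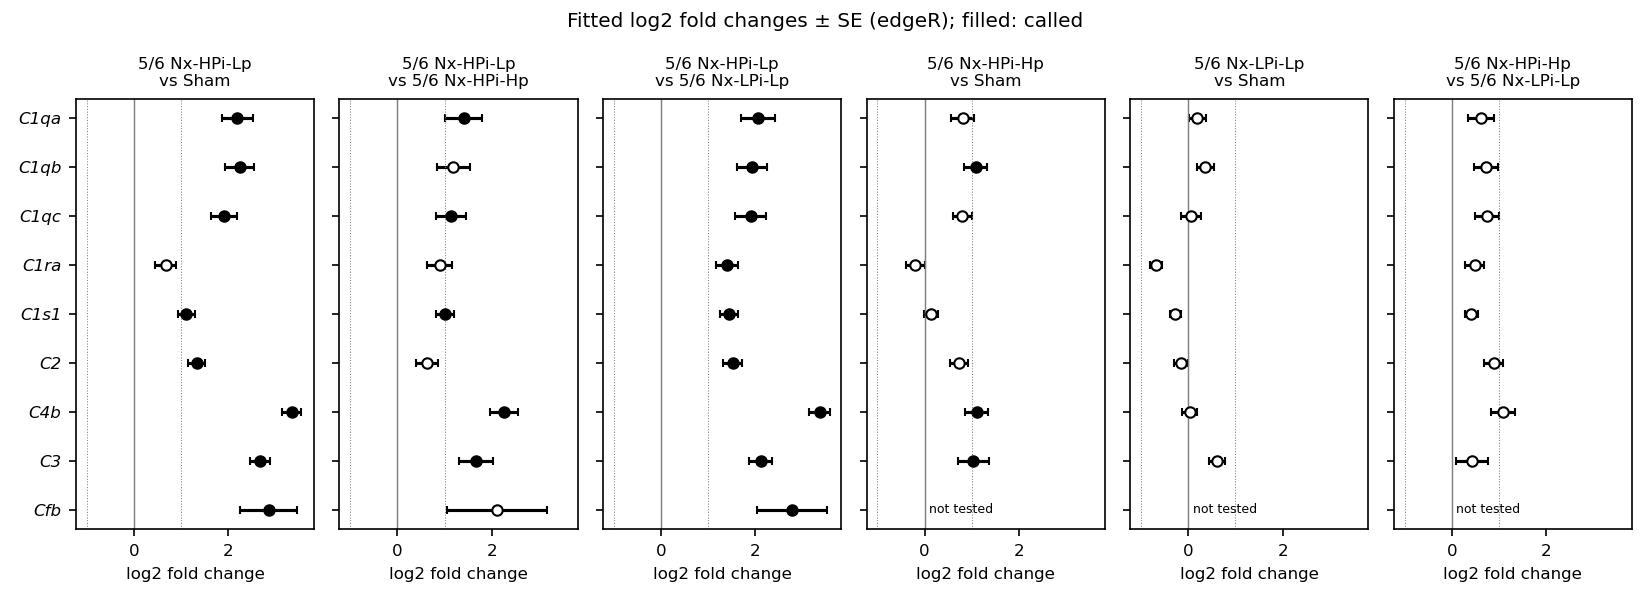
Fitted log2 fold change (horizontal axis) ± SE of the 9 components (rows) in the 6 comparisons of the groups (panels), with filled points for called genes and dotted lines at -1 and 1. In the 3 comparisons of the HPi-Lp mice every point lies above 0, and 8, 5 and 9 of them are called.

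The HPi-Hp mice lay between. Against the Sham mice, from which they differed by surgery and dietary protein, 3 of the 8 components tested were called higher, at a background of 9.41% of 15882 genes: C4b by 1.11 ± 0.24 (adjusted p = 0.0123, edgeR), C1qb by 1.08 ± 0.24 (adjusted p = 0.0127) and C3 by 1.03 ± 0.32 (adjusted p = 0.0354). C1qa (0.81 ± 0.24), C1qc (0.80 ± 0.21) and C2 (0.73 ± 0.18) passed the adjusted p (0.0326, 0.0192 and 0.0175, edgeR) and not the fold threshold. Thus 6 of the 8 passed the adjusted p, as did 17.5% of all genes upwards. C1ra (-0.20 ± 0.20) and C1s1 (0.13 ± 0.14) passed neither, and Cfb was too low to be tested. These calls lie close to the thresholds. That of C3 was lost with limma on both log scales, with no count filter, with the replicate block and in 6 of the 8 refits that left out 1 library, in which its adjusted p was 0.0688 to 0.0898. Without HPi-Hp mouse 1, the highest of its group for all 9 genes, none of the 3 was called, while 1 was called without Sham mouse 4. The share of all genes called in these refits was not counted.

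In the LPi-Lp mice none of the 8 components tested was called against the Sham mice, from which they differed by surgery and dietary phosphorus, in either direction (edgeR). The background was 8.79% of 16071 genes called higher and 2.08% called lower, and 2 of the 8 passed the adjusted p alone, as 17.3% of all genes did upwards and 14.5% downwards. C3 was higher by 0.61 ± 0.17 (adjusted p = 0.0261, edgeR), at 50.01 to 83.0 against 32.2 to 45.8 FPKM. C1ra was lower, at 12.5 to 15.7 against 18.6 to 25.9 FPKM, and it fell by 0.68 on the log2 scale (SE 0.12, adjusted p = 0.0046, edgeR). C4b, at 0.03 ± 0.15, was the value closest to 0, and C1qc, at 0.07 ± 0.21, the next. Both changed sign when single libraries were left out. At an unadjusted p under 0.05 there were 3 of the 8 (C1ra, C1s1 and C3), against 43.7% of all genes. DESeq2 also called none of the 8, against 11% of all genes, as did limma on log2(FPKM + 1) and log2(FPKM + 0.1), against 5.95% and 9.62%.

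Set against each other, the HPi-Hp and LPi-Lp mice had none of the 8 components tested called, and 0% of 15850 genes were called by edgeR. All 8 log2 fold changes were above 0 (0.42 to 1.09), and 6 of the 8 had an unadjusted p under 0.05, the exceptions being C1qa and C3, as 4.59% of all genes did upwards. DESeq2 called 1 of the 8, C4b, at 1.09 (adjusted p = 0.0175), and 0.185% of all genes as higher. C2 had no overlap, at 3.39 to 5.68 against 2.10 to 2.80 FPKM, as 2.33% of all genes did in that direction.

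Over the 4 groups, the HPi-Lp mice had the highest mean FPKM for all 9 genes, and the HPi-Hp mice the second highest for all except C1ra. For C1ra the Sham mice came second, at 23.1 ± 3.25 FPKM, before the HPi-Hp mice at 20.2 ± 5.58 FPKM and the LPi-Lp mice at 14.3 ± 1.40 FPKM (SD, n = 4 each). Of these neighbours the Sham and the HPi-Hp mice overlapped, as did the HPi-Hp and the LPi-Lp mice. The Sham and the LPi-Lp mice, the lowest pair for the other 8 genes, overlapped for all of these except C3. The HPi-Lp and the HPi-Hp mice, the highest pair, overlapped for C1qa, C1qb, C1qc, C2 and Cfb. C2 lay in the same order as C1s1, with the LPi-Lp mice lowest, at 2.29 ± 0.34 FPKM for C2 and 15.1 ± 1.24 FPKM for C1s1.

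The genes that act around these components moved unevenly. For the lists below, 15%, 5.01% and 7.9% of all genes were called higher in the HPi-Lp mice against the Sham, HPi-Hp and LPi-Lp mice. The shares of all genes called lower in the HPi-Lp mice are not given here. Among 12 other genes of classical and lectin initiation, 5 were tested against the Sham mice, and in the HPi-Lp mice 3 were higher and 1 was lower. Fcna, a ficolin that recognises sugars, was higher by 2.88 ± 0.23, the lectin-pathway protease Masp1 by 2.85 ± 0.44 and C4a by 1.03 ± 0.29 on the log2 scale, with adjusted p of 3.14e-05, 0.0007 and 0.0157 (edgeR). The collectin Colec12 fell by 1.62 (SE 0.11, adjusted p = 1.50e-05). Mbl1, Mbl2 and Masp2 were among the 7 too low to test. Against the HPi-Hp mice Masp1 and Fcna were called, and against the LPi-Lp mice only Fcna of the 5 tested.

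Of 9 genes of the alternative and terminal pathways, 5 were tested against the Sham mice and 3 were called higher. Cfd, the factor D that cuts factor B and is made by fat cells, was at 105 to 273 FPKM in the Sham mice and 1673 to 6520.0 FPKM in the HPi-Lp mice, a log2 fold change of 4.43 ± 0.51 (adjusted p = 0.0002, edgeR). Against the HPi-Hp mice Cfd differed by 0.39 ± 0.72 (adjusted p = 0.7465), and against the LPi-Lp mice it was higher by 2.62 ± 0.47 (adjusted p = 0.0068, edgeR). The adipocyte markers were higher in all 3 nephrectomy groups than in the Sham mice (5 or 6 of 6 called). Between the HPi-Lp and the LPi-Lp mice 1 of the 6 was called and 2 lay above 0, with a median log2 fold change of -0.10. Retn did not overlap between these groups, at 61.6 to 267 against 27.5 to 44.7 FPKM. The part of fat cells in the Cfd level was not tested. C6, which joins the membrane attack complex, held 0 to 8 counts in the Sham mice and 70 to 759 in the HPi-Lp mice, and was higher by 5.88 ± 0.67 (adjusted p = 0.0001, edgeR). Its log2 fold change was 4.24 ± 0.54 against the HPi-Hp and 6.56 ± 0.73 against the LPi-Lp mice, called in both. C6 was too low to test in the comparisons without the HPi-Lp mice. Properdin (Cfp), which stabilises the alternative convertase, was higher by 1.92 ± 0.25 against the Sham mice, and C7 was called only against the other nephrectomy groups (1.05 ± 0.25 and 1.78 ± 0.23) of the 3 comparisons. C5 (Hc), C8a, C8b and C9 were too low to test.

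Among 15 regulators 12 were tested, and 3 were higher and 1 was lower than in the Sham mice. Cfi, the protease that cuts C3b and C4b, was higher by 3.68 ± 0.70 from 1 to 8 counts in the Sham mice, the membrane inhibitor Csmd1 by 3.42 ± 0.54 and vitronectin (Vtn), which blocks the terminal complex, by 2.03 ± 0.42, all with adjusted p of at most 0.0036 (edgeR). Cfi was too low to test in the comparisons without the HPi-Lp mice. Clusterin (Clu) fell by 1.10 (SE 0.29, adjusted p = 0.0128, edgeR) against the Sham mice. Cd59b was lower than in the LPi-Lp mice, where it fell by 1.34 on the log2 scale (SE 0.38, adjusted p = 0.0363, edgeR). The C1 inhibitor Serping1, named after its values were seen, was at 171 ± 33.8 FPKM in the Sham mice and 189 ± 51.4 FPKM in the HPi-Lp mice (SD, n = 4 each), a log2 fold change of 0.11 ± 0.20 (adjusted p = 0.689). Over the 12 regulators the median log2 fold change was -0.04.

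Of 11 complement receptors, 9 of 10 tested were higher than in the Sham mice, 7 of 11 than in the HPi-Hp mice and 8 of 10 than in the LPi-Lp mice, with none lower. The shares of all genes called higher in these comparisons were 15%, 5.01% and 7.9%. The largest log2 fold changes against the Sham mice were those of Itgax (3.58 ± 0.47), Vsig4 (3.51 ± 0.43), Itgam (3.29 ± 0.47) and Itgb2 (2.87 ± 0.36), which encode receptors for C3 fragments on leukocytes, and of the anaphylatoxin receptors C3ar1 (2.74 ± 0.40) and C5ar1 (2.61 ± 0.41). All 6 had adjusted p of at most 0.0008 (edgeR) and were also called in the other 2 comparisons of the HPi-Lp mice. Itgam stood at 0.259 to 0.749 FPKM in the Sham mice and 1.83 to 8.22 FPKM in the HPi-Lp mice, without overlap.

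**Figure D4:**
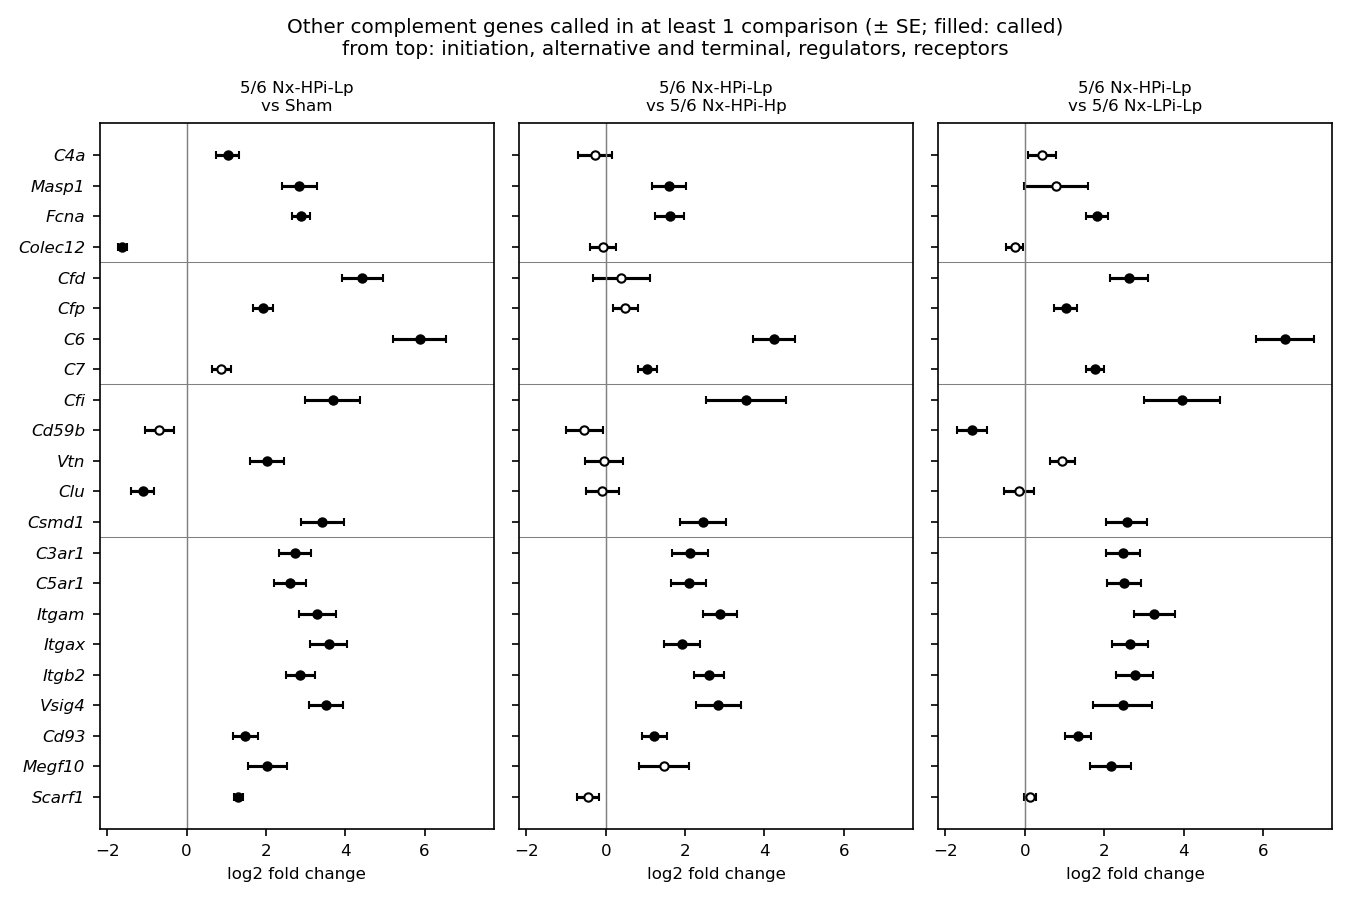
Fitted log2 fold change (horizontal axis) ± SE of other complement genes called in at least 1 comparison of the HPi-Lp mice (1 regulator is not drawn), in blocks for initiation, alternative and terminal pathway, regulators and receptors, with filled points for called genes. The receptors lie above 0 against the Sham mice without exception, while the regulators lie on both sides.

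Of 9 genes of pentraxins and antibody heavy chains, not all of them ligands of C1q, 5 were tested against the Sham mice. In the HPi-Lp mice 4 of these were higher. The antibody heavy chain genes Igha (6.86 ± 1.27), Ighm (2.62 ± 0.82) and Ighg2b (2.41 ± 0.82) varied widely among mice, with Igha at 3.42 to 97.7 FPKM in the HPi-Lp mice, and the pentraxin Ptx3 was higher by 3.17 ± 0.69, with adjusted p of 0.0020, 0.0271, 0.0375 and 0.0049 (edgeR). Only Igha had no overlap of the groups among these 4. Of 15 cytokines and transcription factors known to induce complement genes, 12 were tested and 5 were higher than in the Sham mice. They were Il1b (5.51 ± 0.82), Osm (3.92 ± 0.71), Tnf (2.82 ± 0.91), Irf8 (2.54 ± 0.24) and Spi1 (2.48 ± 0.38), which encodes PU.1. Il1b and Osm were too low to test in the comparisons without the HPi-Lp mice. Stat3 was called only against the LPi-Lp mice (1.03 ± 0.15, adjusted p = 0.0035, edgeR) of the 3 comparisons. Ifng, Il1a and Il6 did not pass the count filter, although Il6 held 6 to 741 counts in the HPi-Lp mice against 0 to 1 in the Sham mice.

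Markers of the cells known to make these components were set beside them. Beside the counts of called markers, the shares of all genes called higher were again 15%, 5.01% and 7.9% against the Sham, HPi-Hp and LPi-Lp mice. Of 12 macrophage markers, 11 were called higher than in the Sham mice (median log2 fold change 2.56, such as Adgre1 at 2.47 ± 0.36 and Cd68 at 2.52 ± 0.41), 10 than in the HPi-Hp mice and 11 than in the LPi-Lp mice, the exception to all 3 being Mertk. Their summed level was 103 to 162 FPKM in the Sham mice, 346 to 1265 FPKM in the HPi-Lp mice, 146 to 251 FPKM in the HPi-Hp mice and 98.9 to 176 FPKM in the LPi-Lp mice. The summed level of the C1q chains followed it. Per macrophage marker sum, C1q was 0.786 ± 0.069 in the Sham mice, 0.646 ± 0.036 in the HPi-Lp mice, 0.964 ± 0.131 in the HPi-Hp mice and 0.856 ± 0.101 in the LPi-Lp mice (SD, n = 4 each). The lowest ratios were those of the HPi-Lp mice, at 0.596 to 0.682, under all 12 others. C4b went the other way against the Sham mice, from 0.0847 to 0.158 per macrophage marker sum in these to 0.164 to 0.389 in the HPi-Lp mice, without overlap. The HPi-Hp mice, at 0.121 to 0.280, overlapped the HPi-Lp mice. C3 per macrophage marker sum was 0.322 ± 0.036 in the Sham, 0.411 ± 0.108 in the HPi-Lp, 0.439 ± 0.189 in the HPi-Hp and 0.467 ± 0.133 in the LPi-Lp mice (SD, n = 4 each). The mean ratios of C1ra, C1s1 and C2 were lower in the HPi-Lp than in the Sham mice. Lyz2 made up most of the macrophage marker sum. Its mean was 88.3 FPKM in the Sham mice and 599 FPKM in the HPi-Lp mice. Mertk went down, from a mean of 20.5 to 11.5 FPKM. Ratios to single markers were not tested.

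**Figure D5:**
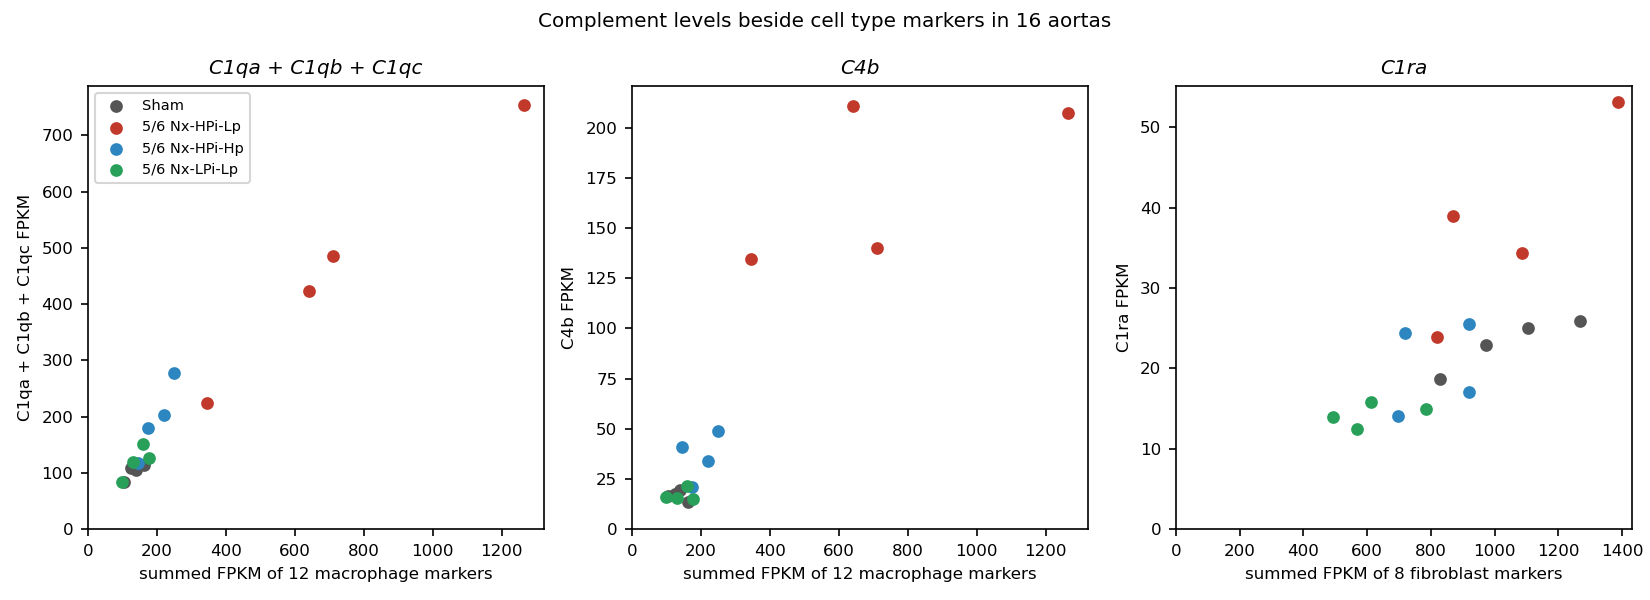
FPKM of the summed C1q chains and of C4b against the summed FPKM of 12 macrophage markers, and of C1ra against the summed FPKM of 8 fibroblast markers, in each of the 16 aortas, coloured by group, on linear axes from 0. The C1q sum climbs with the macrophage markers up to 754 FPKM at a marker sum of 1265 FPKM, while C4b stands at 207 FPKM in that mouse and at 211 FPKM in another.

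Of 8 fibroblast markers, 2 were called higher in the HPi-Lp than in the Sham mice (Lum and Dpt), 4 than in the HPi-Hp mice and 6 than in the LPi-Lp mice. Their summed level was 827 to 1267 FPKM in the Sham mice and 820 to 1387 FPKM in the HPi-Lp mice, and 696 to 921 FPKM in the HPi-Hp and 495 to 784 FPKM in the LPi-Lp mice. The sum hides unequal members, since Gsn stood at a mean of 630.4 FPKM in the Sham mice and 335 FPKM in the HPi-Lp mice, and Lum at 34.7 and 187 FPKM. Per fibroblast marker sum, C4b stood at 0.0163 ± 0.0032 in the Sham mice and 0.167 ± 0.019 in the HPi-Lp mice, and C3 at 0.0407 ± 0.0047 and 0.264 ± 0.031 (SD, n = 4 each), without overlap. C1ra changed least on this scale, from 0.0223 ± 0.0013 in the Sham mice to 0.0360 ± 0.0071 in the HPi-Lp mice, and was at 0.0237 ± 0.0041 in the LPi-Lp mice. Between the LPi-Lp and the Sham mice, C1ra and 5 of the 8 fibroblast markers passed the adjusted p as lower, as did 14.5% of all genes. Hepatocyte markers summed to 3.34 to 15.2 FPKM in the Sham mice and 4.635 to 16.3 FPKM in the HPi-Lp mice, with Serpina1c at 0 in all of the latter, and the ranges overlapped. Of these markers, 1 of 6 tested was called higher than in the Sham mice and 1 of 4 tested than in the LPi-Lp mice. Fgb did not overlap, at 0 to 0.201 FPKM in the Sham mice and 0.323 to 0.587 FPKM in the HPi-Lp mice. Neutrophil markers summed to 1.44 to 8.93 FPKM in the Sham mice and 19.5 to 47.9 FPKM in the HPi-Lp mice, with Ly6g at 0. The part of macrophages, fibroblasts and neutrophils in the component levels was not tested.

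The genes most like each component over the 16 libraries (Pearson r of log2(CPM + 1), over genes whose mean reached 1 CPM) differed by component. For C1qa they were Tyrobp (0.991), C5ar1 (0.979) and Csf1r (0.976). Fcgr3, Cotl1 and Csf1r came first for C1qb and C1qc, at 0.976 to 0.982, and these are genes used by macrophages. C1ra was most like Fgf7 (0.961), Marcksl1 (0.933) and Medag (0.924), and C1s1 most like Alox5ap, F13a1 and Nid1 (0.964 to 0.979). C3 was most like Lgals9, Wfdc17 and Gda (0.972 to 0.979), C4b most like Bcat1, Il1rl2 and Apoe (0.972 to 0.977) and C2 most like Plppr3, Apoe and Aim2 (0.945 to 0.950). Cfb, at few counts, was most like S100a9, Adgrd1 and Tmem100 (0.917 to 0.932). The 16 libraries fall into groups, and when the group means were taken off 3 of these 27 genes stayed among the 3 most like their component, while the 27 correlations were then 0.678 to 0.967. After that step C1ra still went with C1qa at 0.907 and with C1s1 at 0.826, while C4b went with C1qa at 0.418 and with C3 at 0.740.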

How the data were processed

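Poly(A)-selected mRNA of 16 aortas was sequenced, 1 library a mouse. By the study's methods and the submitters' processing notes, the authors aligned reads to mm10 with HISAT2 2.0.5 and counted them with featureCounts 1.5.0-p3. The strand and multimapping settings are not given in the sources used here. The authors deposited raw whole-number counts per gene and FPKM values, scaled between libraries and by gene length. No column was of another sample.

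Counts were tested with edgeR 4.0.16 (R 4.3.3): filterByExpr, TMM scaling, the quasi-likelihood test and Benjamini-Hochberg adjustment over all genes, in fits of the 8 libraries of each pair of groups, with calls where the adjusted p did not exceed 0.05 and the log2 fold change was 1 or more in size. The SE is the log2 fold change divided by the square root of its F. Levels are the deposited FPKM, with mean ± SD. A count of 0 allows up to 3, for counting error only.

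Alternatives were DESeq2 1.42.0, RLE scaling, no count filter, mitochondrially encoded genes left out, all 16 libraries in one fit, limma 3.58.1 on log2(FPKM + 1) and log2(FPKM + 0.1) at a mean FPKM above 0.5, no fold threshold, the mouse number as a block, and each library left out. The fits were tested on simulated data. Tables and figures used Python 3.11.15, pandas 2.3.3 and matplotlib 3.10.9. Replicate libraries differed beyond counting noise (lowest chi-square per gene 20.0), so none was counted as a copy.

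All 9 components are named. Of 6 lists of other complement genes, those called in at least 1 of the 3 comparisons of the HPi-Lp mice are named, at most 6 a list by absolute log2 fold change against the Sham mice, and the 3 genes most like each component. The values of 1 regulator are not reported here. The components, lists and 16 marker lists were chosen with earlier results of these data known.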

Additional observations from a re-analysis of the deposited data

Results flagged for a closer look

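In 4 of 36 sets of 4 mice (9 genes in 4 groups), 1 mouse stood apart from the rest by Dixon's test at the 95% level, where chance gives about 1 in 20. C3 was at 32.23 FPKM in Sham mouse 4, under the other Sham mice by 0.939 of the range. Mouse 2 of the LPi-Lp group was the highest of its group for C2, at 2.799 FPKM (0.952 of the range), and for C4b, at 21.34 FPKM (0.846 of the range). Cfb was at 0.378 FPKM in HPi-Hp mouse 1 (0.851 of the range), which held 20 counts.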

How the results depend on the processing

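Against the Sham mice 7 to 9 of the 9 components were called in the HPi-Lp mice under the alternatives, and 7 to 8 when single libraries were left out. Against the LPi-Lp mice 8 to 9 were called under both. Limma did not test Cfb, whose mean FPKM was too low, so the counts with limma leave Cfb out. Against the HPi-Hp mice the count of 5 became 2 with limma on either log scale and 1 to 7 when single libraries were left out, and the cause was not tested. C4b was called there under every alternative tried. For the HPi-Hp against the Sham mice the count of 3 became 6 with no fold threshold, 2 with limma on either log scale, no count filter or the replicate block, and 0 to 3 when single libraries were left out. For the LPi-Lp against the Sham mice, 1 higher and 1 lower passed with no fold threshold. For the HPi-Hp against the LPi-Lp mice, DESeq2 called 1. Of the 27 most-like genes, 3 stayed among the 3 most like on deviations from the group means. In the LPi-Lp mice compared with Sham, C1qc ranged from -0.054 (without LPi-Lp mouse 2) to 0.249 on the log2 scale when single libraries were left out, with -0.033 without Sham mouse 4, and C4b from -0.116 (without LPi-Lp mouse 2) to 0.0998, with -0.059 without Sham mouse 2 and -0.032 with no count filter. None of these was called. Except where given above, the share of all genes called in the fits of this section was not compared. A general loss of calls thus cannot be told from one of these components.

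The mouse numbers are shared by the groups. The deviations of same-numbered mice correlated at -0.27 to 0.54 and in no comparison all above 0.1, and the main fits held no block. The highest values were those of the HPi-Hp against the LPi-Lp mice, at 0.19, 0.15, -0.07 and 0.54 for mice 1 to 4. Whether same-numbered mice share a batch was not tested. With the replicate block, 1 component was called against the HPi-Hp mice in place of 5, and 8 in each of the comparisons with Sham and LPi-Lp. Depth limits Cfb most, at 0 to 74 counts.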
